A study of Mus musculus with 7 samples.

Results

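The genes described here are the 10 listed members of the step that commits a cell to DNA replication: the 4 INK4 inhibitor genes Cdkn2a, Cdkn2b, Cdkn2c and Cdkn2d, the p27 gene Cdkn1b, the 3 D cyclin genes Ccnd1, Ccnd2 and Ccnd3, and the RB family genes Rb1 and Rbl1. They are defined by gene symbol, with no threshold on a measured value, and all 10 had a row among the 18145 genes of the table. The RNA libraries were made from passage 1 mouse neural stem cells: 2 are labelled Tet-TMut (TMut), 2 labelled Tet-TFoCa (TFoCa) and 3 are wild type (WT), each from a line of its own per the design text, which writes Tet-FoCa for Tet-TFoCa. The labels give no allele, age, sex or strain and no other treatment, and do not say which TET gene or which oxidation step each mutant genotype affects. The series title contrasts the hydroxymethyl form of modified DNA with its formyl and carboxyl forms.

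D-type cyclins bind the kinases CDK4 and CDK6 and turn them on. The active kinases phosphorylate the RB family proteins, which then release E2F transcription factors and with them the genes of DNA replication. INK4 proteins bind CDK4 and CDK6 and block them, while p27 acts mainly on cyclin E with CDK2. In neural stem cells these brakes set how often the cells divide, and Cdkn2a in particular is held silent by Polycomb proteins and rises with culture stress and age. TET enzymes oxidise methylcytosine in CpG dinucleotides stepwise to the hydroxymethyl, formyl and carboxyl forms.

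Because CpG dinucleotides are the substrate of TET enzymes, the 250 bases before the start of 3 genes are shown, with every CpG in capitals. The sequences are from RefSeq (build GRCm38.p6, genes on the minus strand, written 5′ to 3′ in the direction of the gene). The sequenced RNA was aligned to another build, and methylation was not measured in these libraries. Cdkn2a is shown at both of its starts, since the upstream one gives ARF, an activator of p53, and the downstream one gives p16INK4a, a CDK4 and CDK6 inhibitor, and a table of gene counts adds them together. Cdkn2b is shown because it lies beside Cdkn2a, and Rbl1 because it is itself a known E2F target.
Cdkn2a upstream start, chr4:89294620-89294869: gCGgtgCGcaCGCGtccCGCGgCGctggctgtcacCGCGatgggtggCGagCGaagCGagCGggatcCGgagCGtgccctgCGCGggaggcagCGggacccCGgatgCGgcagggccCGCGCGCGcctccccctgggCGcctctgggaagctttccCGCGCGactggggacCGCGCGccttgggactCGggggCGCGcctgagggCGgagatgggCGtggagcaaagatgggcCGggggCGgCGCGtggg
Cdkn2a downstream start, chr4:89282193-89282442: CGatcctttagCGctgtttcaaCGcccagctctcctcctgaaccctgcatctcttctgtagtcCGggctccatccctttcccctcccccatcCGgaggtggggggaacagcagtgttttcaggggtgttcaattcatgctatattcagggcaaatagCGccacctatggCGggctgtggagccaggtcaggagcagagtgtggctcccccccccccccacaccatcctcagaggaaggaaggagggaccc
Cdkn2b, chr4:89311033-89311282: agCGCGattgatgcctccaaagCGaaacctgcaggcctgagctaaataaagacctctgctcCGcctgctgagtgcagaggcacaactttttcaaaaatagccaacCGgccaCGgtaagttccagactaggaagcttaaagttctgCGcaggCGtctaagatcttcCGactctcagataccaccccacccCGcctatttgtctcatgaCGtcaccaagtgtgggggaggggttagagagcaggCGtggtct
Rbl1, chr2:157204535-157204784: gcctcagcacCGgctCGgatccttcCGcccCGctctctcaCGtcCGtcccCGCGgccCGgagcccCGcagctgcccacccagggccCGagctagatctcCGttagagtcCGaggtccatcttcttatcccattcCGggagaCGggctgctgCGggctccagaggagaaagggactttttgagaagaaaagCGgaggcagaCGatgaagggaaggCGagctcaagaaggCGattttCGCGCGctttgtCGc

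The upstream start of Cdkn2a held 40 CpG in its 250 bases, a number reached by 1.31% of the 32851 mouse promoters searched, which had a median of 6. Its downstream start held 7, reached by 46.3% of promoters. Cdkn2b held 12 (reached by 33.5%) and Rbl1 held 24 (reached by 11.98%). E2F motifs were searched on both strands as TTTCCCGC, TTTGGCGC, TTTCGCGC and TTTGCCGC, which 1.86% of all promoters held. TTTCCCGC began 99 bases before the upstream start of Cdkn2a, and TTTCGCGC began 18 bases before the start of Rbl1. The cyclic AMP response element TGACGTCA, in 1.55% of promoters, began 46 bases before the start of Cdkn2b. The GC box GGGCGG, in 32.7% of promoters, matched at 2 places before the upstream start of Cdkn2a and at 1 place before Rbl1. None of these motifs overlapped another in the sequences shown, and a match describes letters, not a bound site. Sequence was found for 7 of the 10 genes, and Ccnd1, Ccnd2 and Rb1 had no entry. Of the members not shown, Cdkn2c held 29 CpG (reached by 6.78%) and 6 (50.35%) at its 2 starts. Cdkn1b held 28 (7.61%), Cdkn2d held 16 (25.4%), and Ccnd3 held 11 (35.6%) and 19 (19.7%) at its 2 starts.

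Each library held between 33340167 and 62545457 reads in genes. Values below are normalized counts, that is, reads divided by the size factor of the library. Differences are log2 fold changes on the log2(normalized count + 1) scale with their standard error (SE), from limma fitted to the 18134 genes tested in all 7 libraries, with p-values adjusted by Benjamini-Hochberg, and a gene is called where that adjusted value is under 0.05. All 10 members passed the filter on low values. TMut and TFoCa were each set against the same 3 WT libraries, so those comparisons are not independent. The neural stem cell label was checked with 9 markers, whose summed normalized count was 128230.3 to 149369 in TMut, 135043 to 139477 in TFoCa and 153285 to 156033 in WT libraries. Vim was the largest part of the sum in every group, so the sum can hide falls of the other markers. It had 101256 to 113661 in TMut, 84912 to 88637 in TFoCa and 65556 to 70733 in WT. Of these 9, 6 were lower and 1 higher in TMut versus WT, and 2 were lower in TFoCa versus WT. Of all genes, 20.4% were called lower and 18.4% higher in TMut versus WT, and 3.52% lower and 5.25% higher in TFoCa versus WT. Over the 9, the log2 fold change against WT ran from -4.57 to 0.66 in TMut, with a median of -1.63. In TFoCa it ran from -1.70 to 0.44, with a median of -0.71.

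Markers of other cell types also moved with genotype. The 10 mesenchymal markers summed to 270563 to 353843 in TMut, 409969 to 462658 in TFoCa and 157089 to 172275 in WT libraries. The 6 neuron markers summed to 3855 to 10241 in TMut, 35561 to 37722 in TFoCa and 46808 to 51439 in WT, and the 5 astrocyte markers to 1592 to 1678 in TMut, 6485 to 7785 in TFoCa and 9226 to 12351 in WT. The 6 markers of pluripotent cells summed to 6231 to 22651 in TMut, 538 to 752 in TFoCa and 6646 to 14019.7 in WT. Against WT, TMut had 4 mesenchymal markers higher and 2 lower, and all 6 neuron and all 5 astrocyte markers lower. In TFoCa against WT, 9 mesenchymal markers were higher, 1 astrocyte marker was lower, and all 6 pluripotent markers were lower. These counts are to be read against the shares of all genes given above. No marker on these lists was at 0 in every library of a group, and the 3 microglial markers looked up had no row among the genes of the table. The part of other cell types in the results below was not tested. In such bulk samples, fewer cells of a type and less RNA per cell cannot be told apart.

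In TMut cells the genes moved in both directions. Cdkn2a, Cdkn2b and Ccnd3 were higher than in WT, while Cdkn2c, Cdkn1b, Rb1 and Rbl1 were lower, by 2-fold or more in every case, and Cdkn2d, Ccnd1 and Ccnd2 were not called. This made 7 of 10 called, where 38.8% of all genes tested were called, 18.4% as higher and 20.4% as lower. In TFoCa cells only Cdkn2a and Cdkn2b were called, both as higher than in WT, where 8.77% of all genes were called and 5.25% were called as higher. Between the mutants, Cdkn2a and Ccnd3 were higher and Cdkn1b and Rb1 lower in TMut than in TFoCa, 4 of 10, where 35.8% of all genes were called, 17.3% as higher and 18.5% as lower. The median log2 fold change of the members was -0.36 in TMut versus WT, -0.18 in TFoCa versus WT and -0.50 in TMut versus TFoCa, and the median of all genes was 0.0022 in TMut versus WT, -0.019 in TFoCa versus WT and -0.0019 in TMut versus TFoCa.

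**Figure D1:**
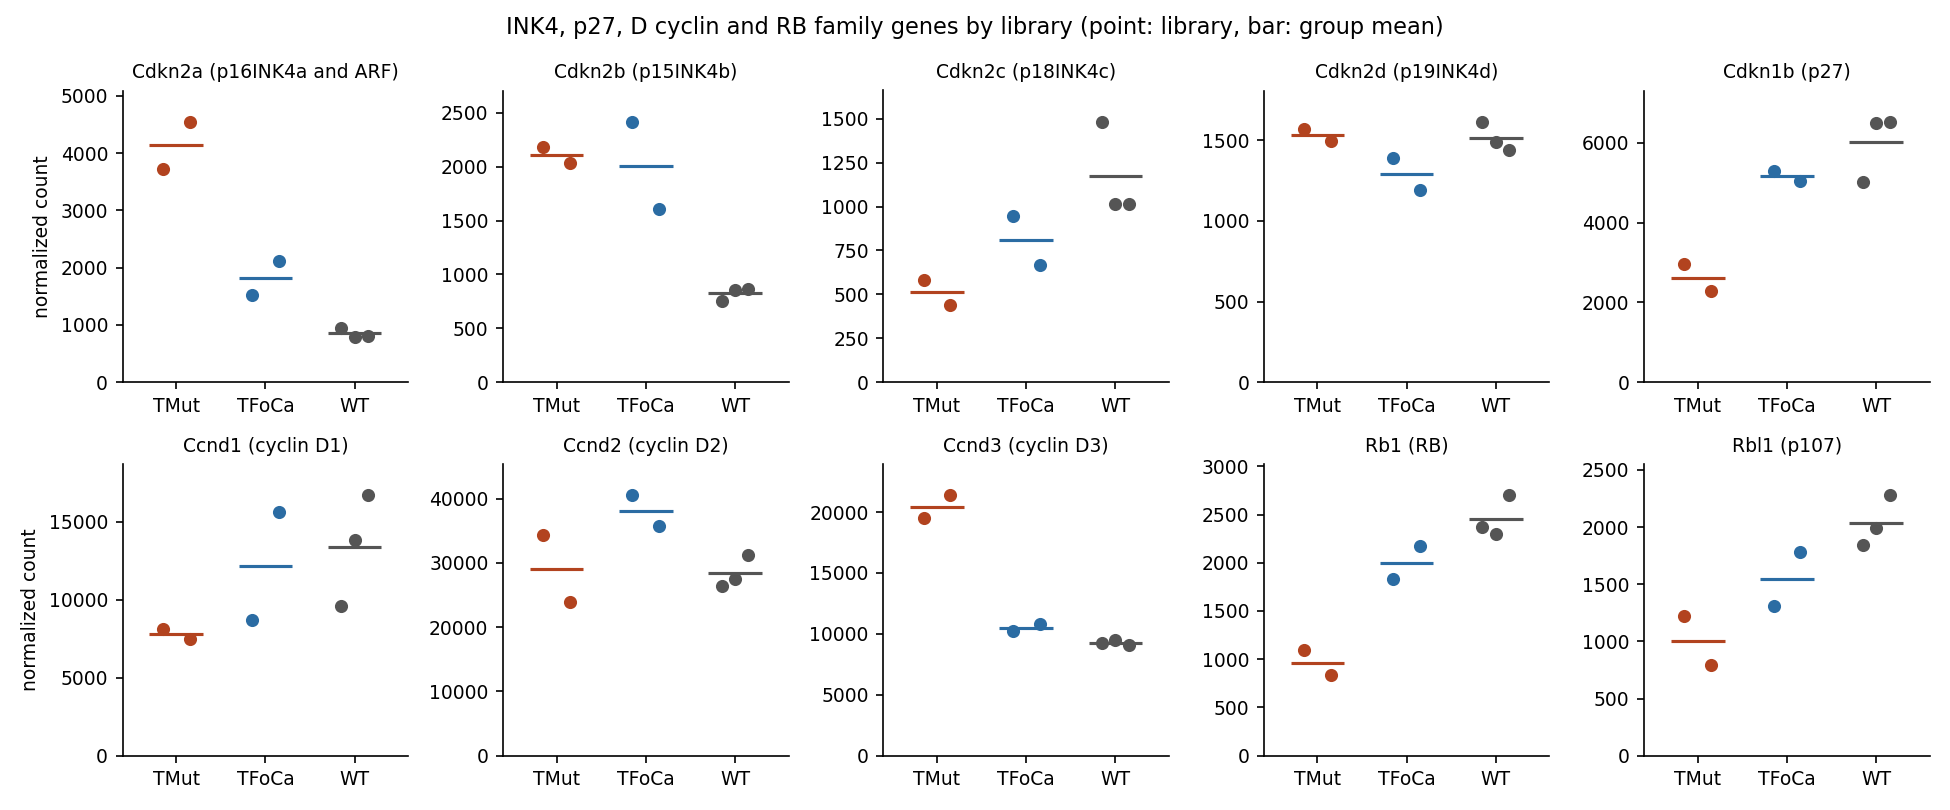
Normalized count (vertical axes, from 0) of the 10 genes in each library; points are libraries and bars are group means (2 TMut, 2 TFoCa and 3 WT). Cdkn2a lies between 3720.4 and 4547 in TMut and between 789 and 951 in WT, and Rb1, Rbl1 and Cdkn2c are lowest in TMut and highest in WT.

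Cdkn2a, the gene of p16INK4a and ARF, had 3720.4 and 4547 normalized counts in TMut replicates 1 and 2, 1520.1 and 2120.3 in the TFoCa replicates, and 951, 789 and 809.9 in the WT replicates. The 3 groups did not overlap, and the highest WT library was below the lowest mutant one. The level was 4.85-fold higher in TMut than in WT (log2 2.28 ± 0.17 SE, adjusted p = 0.00016) and 2.12-fold higher in TFoCa than in WT (1.08 ± 0.17, adjusted p = 0.0118). TMut was also above TFoCa, by 2.29-fold (1.20 ± 0.19, adjusted p = 0.00394). The call in TFoCa versus WT was lost without WT replicate 2, where the difference was 1.03 and the adjusted p 0.0519.

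Cdkn2b encodes p15INK4b, an inhibitor of the same kinases that responds to TGF-β. It had 2182 and 2035 normalized counts in TMut, 2418 and 1604 in TFoCa, and 757, 852 and 865 in WT. Every mutant library was above every WT library, and the TMut values lay between those of the TFoCa libraries. The difference was 1.35 ± 0.18 in TMut versus WT (adjusted p = 0.00106) and 1.26 ± 0.18 in TFoCa versus WT (adjusted p = 0.00819). TMut and TFoCa differed by 0.10 ± 0.19 (95% interval -0.35 to 0.55, adjusted p = 0.72), an interval that still holds changes of either sign. Between the mutants, 1.20 for Cdkn2a was called and 0.10 for Cdkn2b was not, and the difference between the genes was not tested.

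Cdkn2c encodes p18INK4c, the INK4 protein best known from dividing progenitors. It had 584 and 442 normalized counts in TMut, 948 and 668 in TFoCa, and 1483, 1015 and 1017 in WT. The groups did not overlap, and the order was the reverse of that of Cdkn2a. It fell in TMut to 0.441 times the WT level (-1.18 ± 0.24, adjusted p = 0.00663). That call was lost without TMut replicate 2 (-0.98, adjusted p = 0.0512). TFoCa versus WT gave -0.53 ± 0.24 (adjusted p = 0.21), and TMut versus TFoCa gave -0.65 ± 0.26 (adjusted p = 0.0887).

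Cdkn2d, the gene of p19INK4d, had 1569.9 and 1494 normalized counts in TMut, 1389.9 and 1192 in TFoCa, and 1615, 1491 and 1438 in WT. The TMut values lay within the WT range, and both TFoCa values lay below it. The difference was 0.02 ± 0.12 in TMut versus WT (95% interval -0.25 to 0.29, adjusted p = 0.919), an interval that leaves out a change of 2-fold either way. Between TFoCa and WT it was -0.23 ± 0.12 (adjusted p = 0.259) and in TMut versus TFoCa 0.25 ± 0.13 (adjusted p = 0.162).

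Levels can be set between genes only per length, so normalized counts were divided by the exon length of each gene in kilobases (kb). That length counts every base of any annotated exon once, for example 8775 bases for Ccnd3 and 1172 for Cdkn2a. It can exceed the RNA form present, which would lower the per-kb level, so shares and ranks between genes depend on it. Summed over the 4 INK4 genes, these per-kb levels were 5959 and 6457 in TMut, 4272 and 3969 in TFoCa, and 2934, 2611 and 2606 in WT. The groups did not overlap. Cdkn2a made up a mean of 56.7% of that sum in TMut (53.3 to 60.1), 37.97% in TFoCa (30.4 to 45.6) and 26.7% in WT (25.8 to 27.7). Cdkn2d took 15.7% in TMut, 19.9% in TFoCa and 35.4% in WT, where its share was the largest. Cdkn2c took 3.10% in TMut, 7.27% in TFoCa and 15.9% in WT. Shares of a sum depend on one another, so a lower share of Cdkn2d in TMut goes with a level of its own that lay within the WT range.

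**Figure D2:**
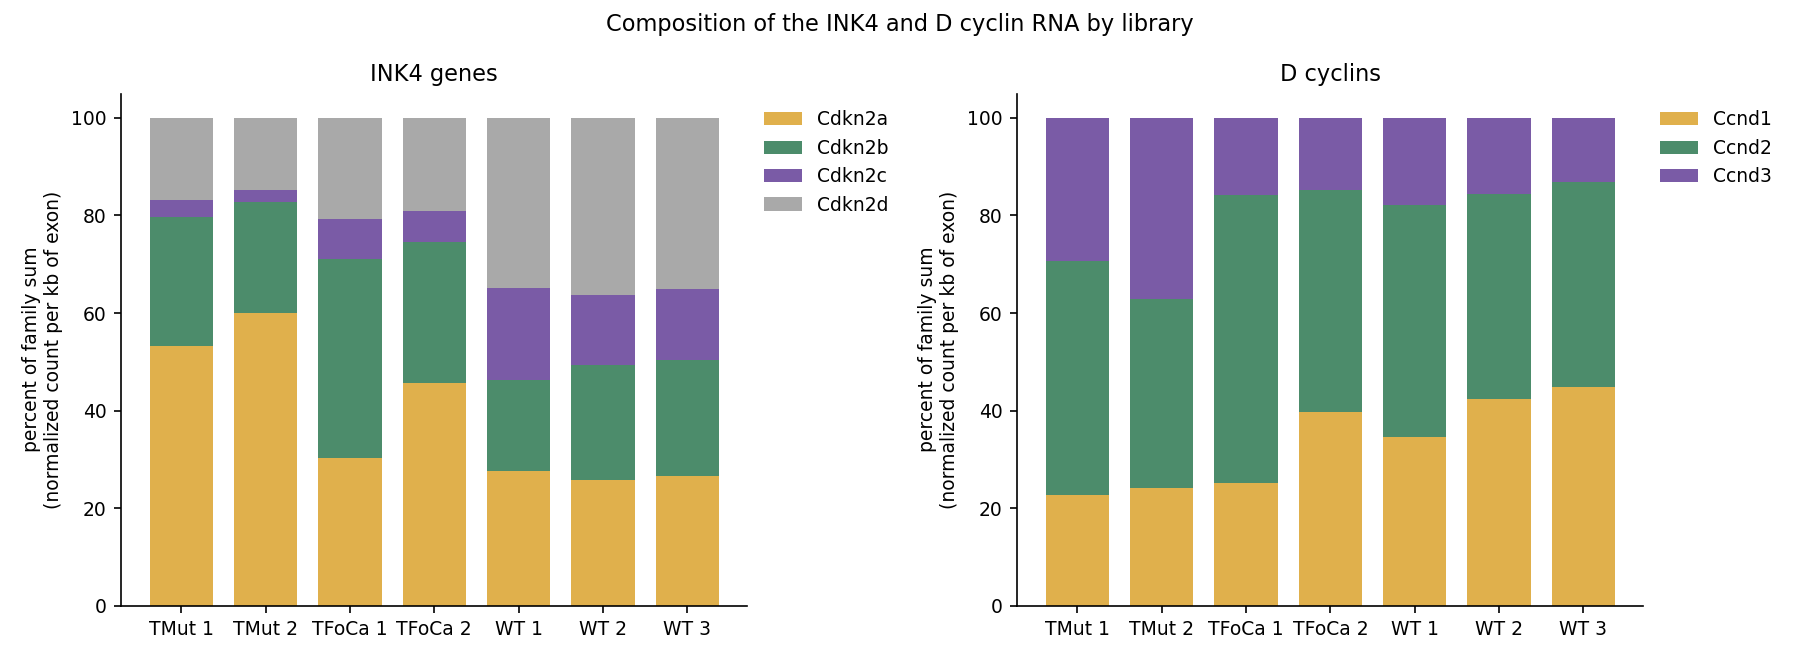
Share of each gene in the summed per-kb level of its family (vertical axes, percent) in each library, for the 4 INK4 genes (left) and the 3 D cyclins (right). Cdkn2a takes 53.3% to 60.1% of the INK4 sum in TMut and 25.8% to 27.7% in WT, and Ccnd3 takes 29.3% to 37.1% of the D cyclin sum in TMut and 13.1% to 17.8% in WT.

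Cdkn1b encodes p27, which holds neural progenitors out of the cycle. It had 2951 and 2288 normalized counts in TMut, 5285 and 5054 in TFoCa, and 5028, 6503 and 6529.6 in WT. Both TMut libraries were below all others, and the TFoCa libraries lay within the WT range. It fell in TMut to 0.435 times the WT level (-1.20 ± 0.16, adjusted p = 0.00102) and to 0.503 times the TFoCa level (-0.99 ± 0.17, adjusted p = 0.00495). TFoCa versus WT gave -0.21 ± 0.16 (95% interval -0.57 to 0.15, adjusted p = 0.448).

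Among the D cyclins, Ccnd3 was the member that rose. Ccnd3, cyclin D3, had 19514 and 21378 normalized counts in TMut, 10200.2 and 10792 in TFoCa, and 9208, 9476 and 9086 in WT. No groups overlapped, and the TMut libraries stood far above the rest. Its difference was 1.14 ± 0.09 in TMut versus WT (adjusted p = 0.00017) and 0.96 ± 0.10 in TMut versus TFoCa (adjusted p = 0.00157). Between TFoCa and WT it was 0.18 ± 0.09 (adjusted p = 0.254). The exons of Ccnd3 share 361 of 8775 bases with Bysl, a ribosome assembly gene on the other strand, in the GENCODE M21 annotation. Bysl was higher in TMut than in WT by 0.62 ± 0.12 (adjusted p = 0.00635), a call lost without TMut replicate 2 (0.48, adjusted p = 0.0506). Bysl averaged 3033 normalized counts in TMut and 1969 in WT, where Ccnd3 averaged 20446 and 9256. Strandedness is not given in the sources used here, so reads of the shared bases cannot be told apart.

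Ccnd1, cyclin D1, had 8097 and 7479.6 normalized counts in TMut, 8696 and 15655 in TFoCa, and 9579.8, 13826 and 16698 in WT. Both TMut libraries were below all others, while the TFoCa and WT libraries were widely spread and overlapped. The difference of -0.74 ± 0.29 in TMut versus WT was not called (95% interval -1.41 to -0.08, adjusted p = 0.0742). It was called without WT replicate 1 (-0.97, adjusted p = 0.0332), and without TFoCa replicate 1 or 2 (adjusted p = 0.03 and 0.0299), where the value stayed at -0.74. TMut versus TFoCa gave -0.58 ± 0.31 (adjusted p = 0.181), but -1.01 without TFoCa replicate 1 (adjusted p = 0.0391) and -0.16 without TFoCa replicate 2. The TFoCa versus WT difference of -0.16 ± 0.29 (adjusted p = 0.775) changed sign without TFoCa replicate 1 or WT replicate 3. Ccnd1 shares 1100 exon bases with LTO1, a gene on the other strand that was not called in any comparison.

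Ccnd2, cyclin D2, the D cyclin of embryonic cortical progenitors, had 34349.8 and 23878 normalized counts in TMut, 40513 and 35734 in TFoCa, and 26413, 27496 and 31184 in WT. The TMut libraries lay on either side of the WT range and both TFoCa libraries above it. TMut versus WT gave 0.02 ± 0.17 (95% interval -0.37 to 0.41, adjusted p = 0.945), and TFoCa versus WT gave 0.43 ± 0.17 (adjusted p = 0.16). TMut versus TFoCa gave -0.41 ± 0.18 (adjusted p = 0.119), which became -0.67, a call, when TMut replicate 1 was left out (adjusted p = 0.0246), and -0.15 when TMut replicate 2 was. Exons of Ccnd2 overlap those of 2 antisense genes that have no row in the table.

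The summed per-kb level of the D cyclins was 7594 and 6562 in TMut, 7315 and 8352 in TFoCa, and 5891, 6938 and 7896 in WT, so the groups overlapped. Within that sum, Ccnd3 took a mean of 33.2% in TMut, 15.3% in TFoCa and 15.5% in WT. Ccnd1 took 23.4% in TMut, 32.5% in TFoCa and 40.6% in WT, and Ccnd2 took 43.4% in TMut, 52.2% in TFoCa and 43.9% in WT. The share of Ccnd3 in the TMut libraries did not overlap that in any other library, whereas the sum of the family did.

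Rb1 encodes RB, the pocket protein that holds back activating E2F factors. It had 1091 and 839 normalized counts in TMut, 1828 and 2170.2 in TFoCa, and 2369, 2296 and 2699.9 in WT. The 3 groups did not overlap, with TMut lowest. It fell in TMut to 0.391 times the WT level (-1.36 ± 0.15, adjusted p = 0.000545) and to 0.481 times the TFoCa level (-1.06 ± 0.16, adjusted p = 0.00378). TFoCa versus WT gave -0.30 ± 0.15 (adjusted p = 0.263). The exons of Rb1 share 488 of 6015 bases with Rcbtb2 and 408 with Lpar6, both on the other strand. Lpar6, a receptor for lysophosphatidic acid, went the other way in TMut versus WT, by 0.72 ± 0.12 (adjusted p = 0.00323), and Rcbtb2 gave -0.25 ± 0.09 (adjusted p = 0.0672). In TFoCa versus WT, Rcbtb2 was lower, at -0.40 ± 0.09 (adjusted p = 0.0397), a call lost when any 1 WT or TFoCa replicate was left out, and Lpar6 gave -0.08 ± 0.12 (adjusted p = 0.731).

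Rbl1 encodes p107, which binds repressive E2F factors. It had 1221 and 789 normalized counts in TMut, 1308 and 1779 in TFoCa, and 1839, 1989 and 2278 in WT. The groups did not overlap, although TMut replicate 1 and TFoCa replicate 1 were close. It fell in TMut to 0.484 times the WT level (-1.05 ± 0.22, adjusted p = 0.00721), and TFoCa versus WT gave -0.41 ± 0.22 (adjusted p = 0.281). TMut versus TFoCa gave -0.64 ± 0.24 (adjusted p = 0.0691); the call appeared at -0.86 when TFoCa replicate 1 was left out (adjusted p = 0.046) and at -0.95 when TMut replicate 1 was (adjusted p = 0.0201), and the value was -0.32 without TMut replicate 2. The remaining pocket protein gene, Rbl2 (p130), which is no member, gave -0.01 ± 0.16 in TMut versus WT, with a 95% interval of -0.37 to 0.35; its sign changed with TMM factors.

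**Figure D3:**
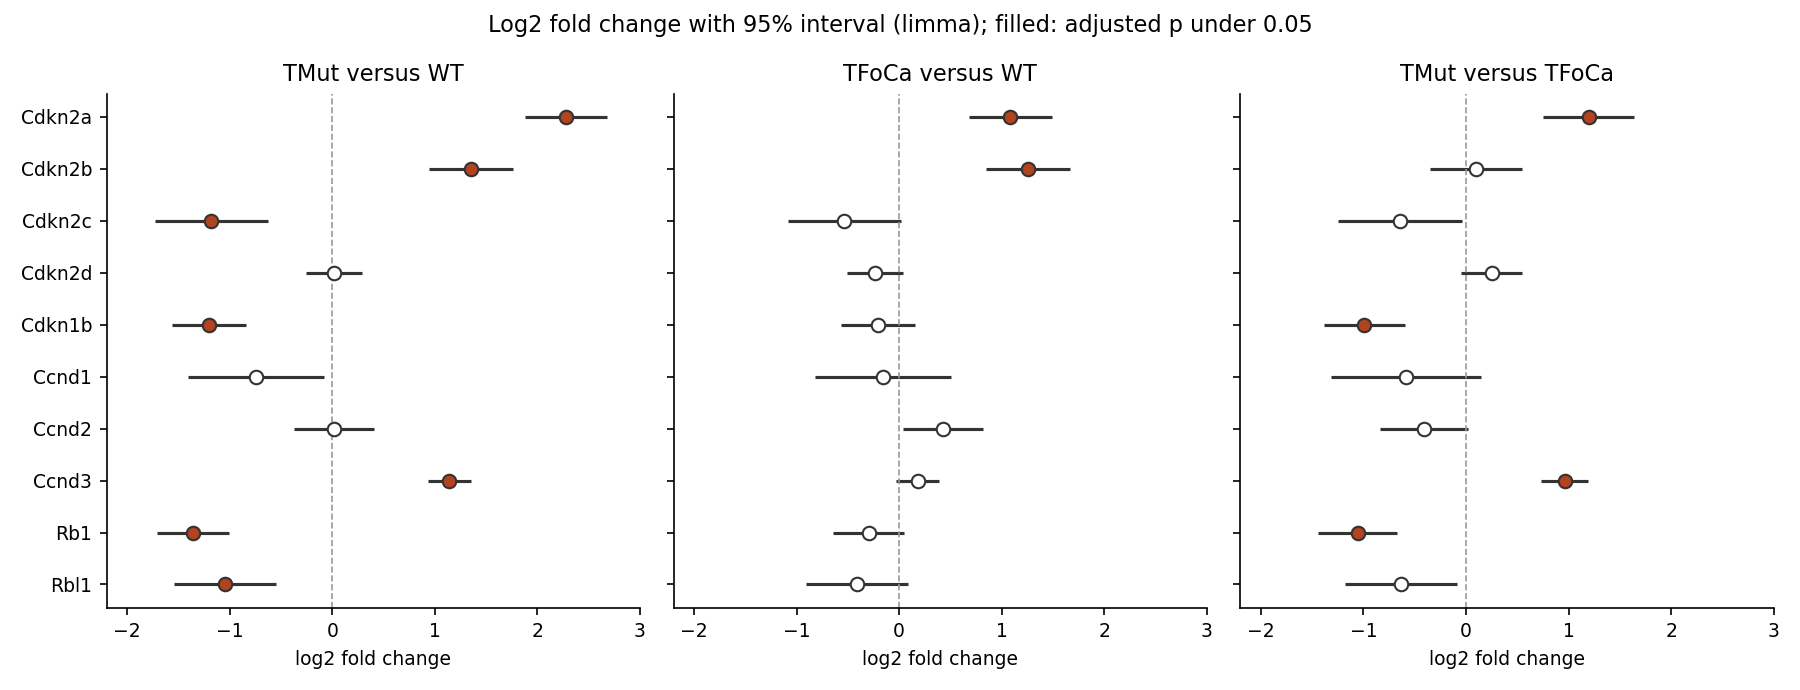
Log2 fold change (horizontal axes) of the 10 genes with its 95% interval from limma in TMut versus WT, TFoCa versus WT and TMut versus TFoCa; filled points have an adjusted p under 0.05. In TMut versus WT, Cdkn2a (2.28), Cdkn2b (1.35) and Ccnd3 (1.14) are to the right, and Cdkn2c (-1.18), Cdkn1b (-1.20), Rb1 (-1.36) and Rbl1 (-1.05) to the left.

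Counting libraries that do not overlap, without a test, gave 3 members higher and 5 lower in TMut versus WT, where 67.1% of all genes did not overlap (33.4% higher and 33.6% lower). It gave 4 higher and 4 lower in TFoCa versus WT, where 45.2% of all genes did not overlap (21.0% higher and 24.2% lower), and 3 higher and 6 lower in TMut versus TFoCa, where 67.5% did not (33.9% higher and 33.5% lower). In TFoCa versus WT, Cdkn2c, Cdkn2d, Rb1 and Rbl1 were below and Ccnd2 and Ccnd3 above in every library without being called.

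The order of the members by mean per-kb level changed between genotypes. In TMut, Cdkn2a (3527) and Ccnd2 (3094) came first and their libraries overlapped; Ccnd3 (2330.0), Ccnd1 (1654), Cdkn2b (1517), Cdkn2d (973) and Cdkn1b (575) followed with no overlap between neighbours, then Cdkn2c (191), Rbl1 (168) and Rb1 (160.4), which overlapped. In TFoCa, Ccnd2 (4052) and Ccnd1 (2586) came first and did not overlap; Cdkn2a (1553), Cdkn2b (1447) and Ccnd3 (1196) came next, each overlapping its neighbour among these 3, before Cdkn1b (1136) and Cdkn2d (820.02), and Rb1 (332), Cdkn2c (301) and Rbl1 (258) came last, where Cdkn2c overlapped both of the others and Rb1 did not overlap Rbl1. In WT, Ccnd2 (3015) and Ccnd1 (2839) overlapped at the top, and Cdkn1b (1323), Ccnd3 (1055), Cdkn2d (962), Cdkn2a (725) and Cdkn2b (593) followed without overlap between neighbours. Last in WT were Cdkn2c (436), which overlapped Cdkn2b and Rb1, then Rb1 (408) and Rbl1 (339.6), which did not overlap each other. Cdkn2a was thus rank 1 in TMut, rank 3 in TFoCa and rank 6 in WT, with the exon lengths used here.

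Cdkn2a and Cdkn2b are adjacent on mouse chromosome 4, with 0 genes of the table between them, so the genes on either side were examined. Mtap, an enzyme of methionine salvage, lies next to Cdkn2a and had 5082 and 5149 normalized counts in TMut, 2476 and 3231 in TFoCa, and 2884, 2531 and 2801 in WT. Both TMut libraries were above all others, and TFoCa overlapped WT. Mtap was higher by 0.90 ± 0.13 in TMut versus WT (adjusted p = 0.00158) and by 0.85 ± 0.14 in TMut versus TFoCa (adjusted p = 0.00455), against 0.05 ± 0.13 in TFoCa versus WT (adjusted p = 0.856).

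Dmrta1, a DM domain transcription factor gene of the developing forebrain, lies next to Cdkn2b. It had 115 and 33.6 normalized counts in TMut, 163 and 555 in TFoCa, and 429.9, 369.5 and 387 in WT. TMut was below all other libraries, and the TFoCa libraries lay on either side of WT. Dmrta1 was lower in TMut than in WT (-2.64 ± 0.61, adjusted p = 0.0115), a call lost without TMut replicate 2 (-1.77, adjusted p = 0.074). It was also lower in TMut than in TFoCa (-2.25 ± 0.67, adjusted p = 0.0335), a call lost when any 1 WT replicate was left out (adjusted p 0.0559 to 0.0582), without TFoCa replicate 2 (-1.37) and without TMut replicate 2 (-1.38). Of the 4 adjoining genes, 2 of them members, 3 were higher and 1 lower in TMut versus WT, where 18.4% of all genes were higher and 20.4% lower. In TFoCa versus WT, Cdkn2a and Cdkn2b were called as higher, as were 5.25% of all genes, and Mtap and Dmrta1 were not called.

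**Figure D4:**
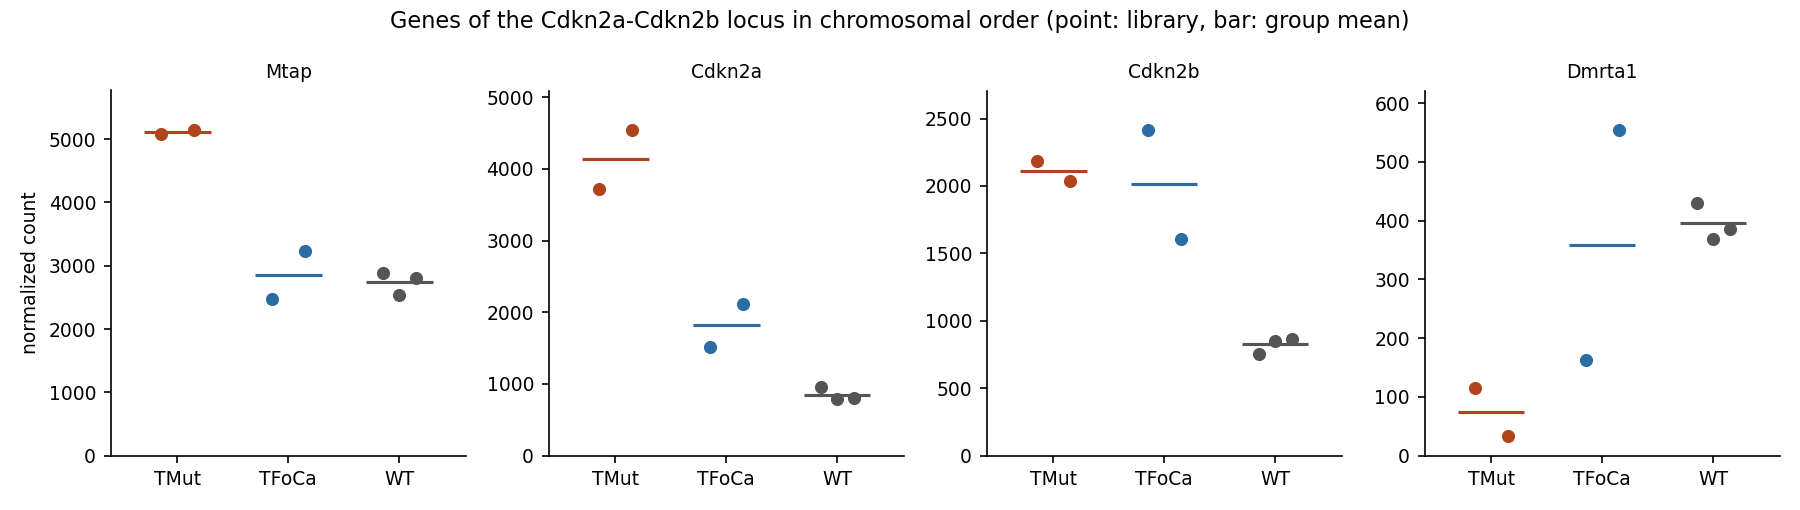
Normalized count (vertical axes, from 0) of Mtap, Cdkn2a, Cdkn2b and Dmrta1 in their order on mouse chromosome 4; points are libraries and bars group means. Mtap is at 5082 and 5149 in TMut and at 2476 to 3231 elsewhere, Cdkn2a is stepped over the 3 genotypes, Cdkn2b is high in both mutants, and Dmrta1 is lowest in TMut.

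The pathway around the members was followed with lists of genes chosen for their roles. Each count below is to be read against the share of all genes called: 18.4% higher and 20.4% lower in TMut versus WT, 5.25% higher and 3.52% lower in TFoCa versus WT, and 17.3% higher and 18.5% lower in TMut versus TFoCa. Of 8 partners in the G1 phase (CDK4, CDK6, CDK2, the E cyclins, p130 and the other CIP/KIP inhibitors), 2 were higher and 0 lower in TMut versus WT, with a list median of 0.0017. Ccne1, cyclin E1, rose by 1.46 ± 0.15 (adjusted p = 0.00039), and Cdkn1a, the p21 inhibitor that p53 induces, by 1.33 ± 0.09 (adjusted p = 0.000128). Against WT, TFoCa had 1 higher, Cdkn1a by 0.75 ± 0.09 (adjusted p = 0.00558), and 2 lower, with a median of -0.28. Ccne2 gave -0.72 ± 0.16 (adjusted p = 0.0355), a call lost when any 1 WT or TFoCa replicate was left out. The count of 2 lower was 0 when any 1 WT replicate or TFoCa replicate 2 was left out, and 1 when a TMut replicate was. In TMut versus TFoCa, 3 were higher and 1 lower with a median of 0.40, and Ccne1 gave 1.84 ± 0.16 (adjusted p = 0.00144). The 1 lower became 0 without WT replicate 2, TFoCa replicate 2 or either TMut replicate.

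The next list holds E2F factors, their DP partners and genes linked to the DREAM complex, not all of which bind RB family proteins. Measured were 14 of the 15 listed genes. In TMut versus WT, 7 were lower and 0 higher (median -0.45), where 20.4% of all genes were lower and 18.4% higher, and E2f3 fell by 1.15 ± 0.10 (adjusted p = 0.000242) and Tfdp2 by 1.15 ± 0.11 (adjusted p = 0.000295). Without TMut replicate 2 the 7 became 4, without TMut replicate 1 the 0 became 2, and edgeR and DESeq2 each called 1 as higher. For TFoCa against WT, 3 were lower and 0 higher (median -0.38), among them Tfdp2 (-0.67 ± 0.11, adjusted p = 0.0121) and E2f1 (-0.49 ± 0.10, adjusted p = 0.0229). That count was 7 by DESeq2 and 1 with a replicate block, and ranged from 0 to 4 when single libraries were left out (0 or 1 without any 1 WT replicate or TFoCa replicate 1); the E2f1 call was lost when any 1 WT replicate or TFoCa replicate 1 was left out, and the Tfdp2 call without WT replicate 2 or 3. In TMut versus TFoCa, 2 were higher and 3 lower, the 2 becoming 1 without TFoCa replicate 1 and 0 without TMut replicate 2, with E2f3 at -0.92 ± 0.11 (adjusted p = 0.00199) and E2f8 at -0.70 ± 0.13 (adjusted p = 0.00582).

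Of 21 textbook E2F targets of S phase, 13 were lower and 0 higher in TFoCa versus WT, where 3.52% of all genes were lower, and the list median was -0.69. Pcna, the sliding clamp of DNA polymerase, gave -1.02 ± 0.12 (adjusted p = 0.0043), and Mcm7, part of the helicase that opens DNA for replication, gave -0.95 ± 0.11 (adjusted p = 0.00482). The 13 became 5, 6 and 4 without WT replicates 1, 2 and 3, and 7 without TFoCa replicate 1. For TMut against WT, 4 were higher and 3 lower, with a median of -0.07; Tyms, thymidylate synthase, was higher (0.67 ± 0.14, adjusted p = 0.00874; lost without TMut replicate 2) and Ccna2, cyclin A2, was lower (-0.51 ± 0.09, adjusted p = 0.00443). These counts were 1 to 5 and 1 to 4 when single libraries were left out. Between the mutants, 13 were higher and 0 lower in TMut, where 17.3% of all genes were higher, with a median of 0.69 and 8 higher without TMut replicate 2. Of the 6 pluripotent markers, all 6 were lower in TFoCa than in WT, all 6 were higher in TMut than in TFoCa, and in TMut versus WT none had an unadjusted p under 0.05 by limma, with a median of -0.40. Their part in the E2F target values was not tested. Against WT, Rb1, Rbl1 and Cdkn1b were called as lower in TMut, where the E2F target median was near 0. They were not called in TFoCa, where that median was lower, at -0.30, -0.41 and -0.21. Cdkn2a and Cdkn2b were called as higher than in WT in both mutants. Any link between these members and the E2F target values was not tested.

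The protein level of p27 is set by the SCF-SKP2 and KPC ubiquitin ligases and its transcription by FOXO factors. Of 11 such genes measured out of 12 listed, 5 were higher and 2 lower in TMut versus WT (median 0.23), including Cks1b, the SKP2 cofactor that recognises p27 (0.65 ± 0.10, adjusted p = 0.00237), and Ubac1, a KPC subunit (0.59 ± 0.10, adjusted p = 0.00328). Those counts were 2 to 5 and 0 to 2 when single libraries were left out. Between TFoCa and WT, limma called 0 of 11, with Skp2 at -0.44 ± 0.12 (adjusted p = 0.0683; 0.0298 without TFoCa replicate 2); 3 of the 11 had an unadjusted p under 0.05, edgeR called 0 and DESeq2 called 1. Between the mutants, 4 were higher and 1 lower in TMut; the 4 became 2 without TMut replicate 2, and also in the fit without WT and with a replicate block.

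Of 8 genes that lower D cyclin proteins, 3 were higher and 1 lower in TMut versus WT (median 0.21). Cul4b, a ubiquitin ligase scaffold, rose by 0.67 ± 0.13 (adjusted p = 0.00623), and Gsk3b, a kinase that marks cyclin D1 for export and decay, fell by 0.92 ± 0.09 (adjusted p = 0.000404). The 3 became 1 without TMut replicate 2. In TMut versus TFoCa, 3 were again higher and 1 lower, with Cul4b at 1.14 ± 0.15 (adjusted p = 0.00227) and Gsk3b at -0.72 ± 0.10 (adjusted p = 0.00299). For TFoCa against WT, limma called 0 of 8, with Cul4b at -0.47 ± 0.13 (adjusted p = 0.0703; 0.0289 and 0.0296 without TMut replicate 1 and 2), 1 of 8 had an unadjusted p under 0.05, edgeR called 0 and DESeq2 called 1.

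Regulators known to act on Cdkn2a or Cdkn2b include Polycomb proteins, demethylases and transcription factors, 26 in all. Against WT, 5 were higher and 3 lower in TMut (median -0.07), where 18.4% of all genes were higher and 20.4% lower, in TFoCa versus WT 4 were higher and 2 lower (median 0.03), where 5.25% of all genes were higher and 3.52% lower, and in TMut versus TFoCa 4 were higher and 4 lower (median -0.10). Ets1, an activator of the p16INK4a promoter, had the smallest adjusted p of the list in every comparison. It was higher in TMut than in WT by 1.91 ± 0.11 (adjusted p = 7.14e-05), in TFoCa than in WT by 1.02 ± 0.11 (adjusted p = 0.00344) and in TMut than in TFoCa by 0.89 ± 0.12 (adjusted p = 0.00254). Its normalized counts were 4015 and 4565 in TMut, 2394 and 2235 in TFoCa, and 1229, 1105 and 1095 in WT. The group means of Ets1, and of Hmga2 and Tbx2 below, had the same order as those of Cdkn2a, and any link was not tested.

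Hmga2, a chromatin protein known to lower p16INK4a and ARF in young mouse neural stem cells, had 22681 and 22103 normalized counts in TMut, 12718 and 16033 in TFoCa, and 4742, 5196 and 6458 in WT. The groups did not overlap. Hmga2 was higher by 2.05 ± 0.15 in TMut versus WT (adjusted p = 0.000158) and by 1.40 ± 0.15 in TFoCa versus WT (adjusted p = 0.00361). Kdm6b, a demethylase that removes the Polycomb mark, was lower in TMut than in TFoCa (-0.78 ± 0.15, adjusted p = 0.00712). Tbx2 and Ets2 of this list were named after their values were seen. Tbx2 had 2247 to 2971 normalized counts in TMut, 2131 to 2625 in TFoCa and 1401 to 1509 in WT. Ets2 had 1333 to 1461 in TMut, 1359.5 to 1925 in TFoCa and 958 to 1008 in WT.

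The genes of this list that were lower than in WT were named after their values were seen. In TMut they were Ezh2, the methyltransferase of Polycomb complex PRC2 (-0.89 ± 0.12, adjusted p = 0.00125), Ring1, a ubiquitin ligase of PRC1 (0.499 times the WT level, adjusted p = 0.00169), and Dmtf1, an activator of ARF (-0.48 ± 0.10, adjusted p = 0.0079; lost without TMut replicate 2). In TFoCa they were Ezh2 (-0.66 ± 0.12, adjusted p = 0.0169) and Eed, another PRC2 subunit (-0.48 ± 0.12, adjusted p = 0.0471), while Ring1 gave -0.56 ± 0.15 (adjusted p = 0.0555; called without TFoCa replicate 1 and by DESeq2). Both TFoCa calls were lost when any 1 WT replicate or TFoCa replicate 1 was left out, and that of Eed also without either TMut replicate, with TMM factors, by edgeR and in the fit without TMut. Mean normalized counts of Ezh2 were 4926 in TMut, 5746 in TFoCa and 9098 in WT, and those of Ring1 were 1644 in TMut, 2239 in TFoCa and 3290.2 in WT. Between TMut and TFoCa neither gene was called, with -0.22 ± 0.13 for Ezh2 (adjusted p = 0.222) and -0.44 ± 0.16 for Ring1 (adjusted p = 0.0661). Of the other Polycomb genes listed, 1 was called against WT: Cbx6, a PRC1 subunit, was higher in TMut (0.44 ± 0.12, adjusted p = 0.0241), a call lost without WT replicate 2, WT replicate 3 or either TMut replicate. Counts of the list depended on single libraries: the 4 higher in TFoCa versus WT became 2 and the 2 lower became 0 without any 1 WT replicate, and the 3 lower in TMut versus WT became 7 without either TFoCa replicate. The 5 higher in TMut versus WT became 3 without WT replicate 2, WT replicate 3 or TMut replicate 2, and the 4 lower in TMut versus TFoCa ranged from 1 without TMut replicate 2 to 7 without TFoCa replicate 1.

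ARF acts by binding Mdm2, which frees p53. Of 4 ARF partners, 2 were higher and 0 lower in TMut versus WT: Mdm2 by 0.98 ± 0.14 (adjusted p = 0.0015) and Trp53, the p53 gene, by 0.72 ± 0.18 (adjusted p = 0.016). The Trp53 call was lost without WT replicate 3 (0.68, adjusted p = 0.0568) and without TMut replicate 2 (0.60, adjusted p = 0.107). In TMut versus TFoCa the same genes were called, Mdm2 at 0.92 ± 0.15 (adjusted p = 0.00441) and Trp53 at 0.82 ± 0.20 (adjusted p = 0.0159), the Trp53 value being 0.51 without TFoCa replicate 1 and its call lost without TMut replicate 2 and in the fit without WT (adjusted p = 0.0587). In TFoCa versus WT, limma, edgeR and DESeq2 each called 0 of 4, and 0 had an unadjusted p under 0.05, with Mdm4 at 0.35 ± 0.18 (adjusted p = 0.257), called without TFoCa replicate 1 (0.67, adjusted p = 0.0237).

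**Figure D5:**
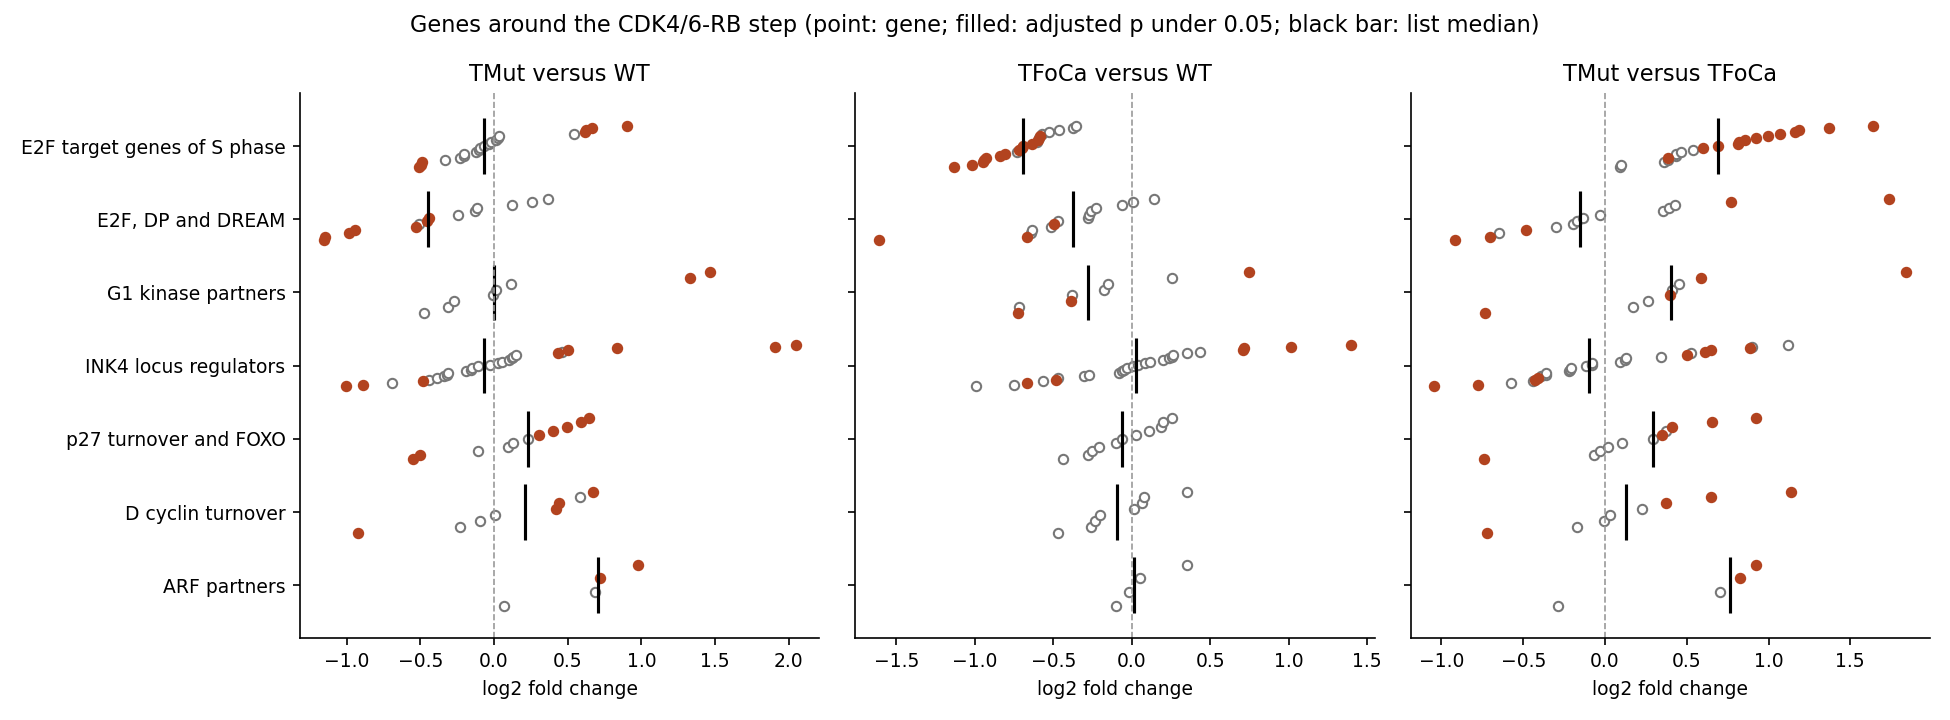
Log2 fold change (horizontal axes) of each gene of 7 pathway lists in the 3 comparisons; points are genes, filled where the adjusted p is under 0.05, and black bars are list medians. The E2F targets of S phase lie to the left in TFoCa versus WT (median -0.69), around 0 in TMut versus WT (median -0.07) and to the right in TMut versus TFoCa (median 0.69).

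Genes with the profile most like that of a member were sought among 13197 genes, for the 3 members with the widest range of group means, by the mean absolute difference of centred log2 values over the 7 libraries. Nearest to Cdkn2a were Tpm2 (difference 0.08), Loxl1 (0.14) and Synpo (0.14); Tpm2, a tropomyosin, averaged 9250.4 normalized counts in TMut, 4491 in TFoCa and 2019.7 in WT. Nearest to Cdkn2b were Twist1 (0.06), Tgm2 (0.06) and Frzb (0.09); Twist1, a mesenchymal transcription factor on the marker list above, averaged 5629.9 in TMut, 6056 in TFoCa and 2372 in WT. Nearest to Rb1 were Hdgfl3 (0.04), Rims2 (0.05) and Cdc25b (0.06); Cdc25b, a phosphatase that drives entry into mitosis, averaged 1805 in TMut, 3789.8 in TFoCa and 4867 in WT. These are descriptions over 7 libraries of 3 genotypes, where any pair of genes with the same group means will look alike.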

How the data were processed

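RNA of 7 libraries of mouse neural stem cells was analysed (2 TMut, 2 TFoCa and 3 WT). The submitters' processing notes name trimming with Trim Galore 0.6.5, the aligner STAR 2.7.3a on genome build mm39, SAMtools, featureCounts for counting and DESeq2; settings, annotation and strandedness are not given in the sources used here. The authors deposited 1 table of normalized counts (signal): each gene's count over its library's size factor. Dividing by the step of each column gave whole reads within 0.001 read for 100% of values. Among counts from 1 to 20, 70.3% to 79.3% were even, so pairs may have been counted by mate. The filter asked for 10 normalized counts in any 2 libraries and kept 18134 of 18145 genes.

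The main test was limma 3.58.1 (R 4.3.3) on log2(normalized count + 1), with an intensity trend, 1 fit for all genotypes, 4 residual degrees of freedom, and Benjamini-Hochberg adjustment over all genes tested. It was checked on simulated data in which far fewer genes were changed than were called in TMut versus WT. That check does not cover normalization or error rates under such wide change. Alternatives on the recovered reads were edgeR 4.0.16 and DESeq2 1.42.0, which called 1606 and 2947 genes in TFoCa versus WT, 7038 and 7664 in TMut versus WT, and 6375 and 7207 in TMut versus TFoCa. Exon lengths and overlaps came from GENCODE M21 and promoters from RefSeq, both of an earlier build than the authors' alignment. The members and gene lists were chosen with earlier results of these data known. Named beyond the members are the 2 genes of each list with the smallest adjusted p in each comparison and the 3 genes most like each of the 3 members with the widest range. Rbl2, Ezh2, Ring1, Eed, Dmtf1, Cbx6, Tbx2, Ets2, the marker Vim and the genes whose exons overlap a member were added to that rule after their values were seen.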

Additional observations from a re-analysis of the deposited data

How the results depend on the processing

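Each of the 3 comparisons was refitted under 16 alternatives: other pseudocounts, filters, TMM factors, edgeR, DESeq2, a fit to the genotypes compared alone, a replicate block, and each library left out. Over the members, 456 results kept their direction and their side of the threshold, 11 gained a call, 3 lost one and 10 changed sign, all of the last in results that were not called. Over the other genes followed by name in these fits, 901 results kept both, 9 gained a call, 57 lost one and 9 changed sign. Left out were Tbx2, Ets2, Vim, LTO1 and the genes sought as most like a member. Not every gene was followed in every comparison, and most were picked for a small adjusted p in these same data. The number of genes called in TFoCa versus WT (1590) was 2947 by DESeq2 and 1606 by edgeR, and 495 to 1768 with a library left out. In TMut versus WT (7043) it was 4329 to 8127 with a library left out, and in TMut versus TFoCa (6491) it was 3164 to 5940, and 3419 when fitted without WT. The 2 members called in TFoCa versus WT were 1 to 2 with a library left out. DESeq2 also called Ccnd1 in TMut versus WT (adjusted p = 0.0192) and Rbl1 in TMut versus TFoCa (adjusted p = 0.0456), and the fit without TFoCa called Ccnd1 in TMut versus WT (adjusted p = 0.0299). The cause of these shifts was not tested. Leaving out a library leaves fewer samples. The main fit also estimates 1 spread per gene over all genotypes, so libraries of the third genotype enter the SE of a comparison.

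Sign changes with a library left out are given with the range over such fits. In TFoCa versus WT, Ccnd1 was -0.58 to 0.26 (0.26 without TFoCa replicate 1 and 0.02 without WT replicate 3), Dmrta1 was -1.27 to 0.49 and Trp53 -0.42 to 0.21 (both highest without TFoCa replicate 1), and Mtap was -0.14 to 0.24 (lowest without TFoCa replicate 2, and -0.0069 without WT replicate 2). In TFoCa versus WT, Lpar6 was -0.18 to 0.026 (0.026 without TFoCa replicate 2). In TMut versus WT, Rbl2 was -0.083 to 0.092 (0.021 without TMut replicate 1, 0.092 without WT replicate 1), and 0.025 with TMM factors and 0.017 by edgeR, Cdkn2d was -0.019 to 0.065 (negative without WT replicate 3 or TMut replicate 1), and Ccnd2 was -0.24 to 0.28 (-0.24 without TMut replicate 1, and -0.03 and -0.0030 when WT replicate 1 or WT replicate 2 was left out). In TMut versus TFoCa, Cdkn2b was -0.20 to 0.39 (-0.20 without TFoCa replicate 2).

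The labels number the replicates alike in each genotype. Deviations from the group means of libraries that share a number correlated across genes by 0.0192 to 0.185. With 2 libraries in each mutant group, their deviations are equal and opposite. These values alone therefore cannot decide whether the numbers pair libraries, and the main fit treated the libraries as unpaired. With a replicate block, 555 genes and 1 member were called in TFoCa versus WT and 4620 genes in TMut versus WT. Under this block Cdkn2a in TFoCa versus WT had an adjusted p of 0.0605 (1.05), Cdkn2c in TMut versus TFoCa was called (adjusted p = 0.0332), 3 of the 21 E2F targets were lower in TFoCa versus WT, Ccnd1 in TFoCa versus WT was 0.0198 and Cdkn2d in TMut versus WT was -0.0189. Fits at a common depth were not run, so what depth limits here was not tested.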
